A study of Mus musculus with 12 samples.

Results

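The IL-10 family cytokine genes measured here were Il10, Il19, Il24 and Il22, taken by symbol as 4 of the 11022 genes of a table of mRNA levels in mouse cytotoxic T lymphocytes (CTL). The cells were P14 CTL, which are CD8 T cells from LCMV-P14 TCR transgenic mice (females, 9 to 13 weeks old) and therefore share 1 T cell receptor (TCR). All 12 cultures had first been activated for 48 h with peptide, IL-2 and IL-12 and then grown for 5 days in IL-2 alone, so every group, the unstimulated one included, holds effector cells and none holds naive cells. There were 4 groups of 3 biological replicates: unstimulated CTL kept in IL-2, CTL retriggered with 100 ng/mL of the gp33-41 peptide for 4 h (TCR), and CTL given the same peptide with 10 µM IC87114, which inhibits the p110δ form of the lipid kinase PI3K (PI3K inhibitor group), or with 2 µM PD184252, an inhibitor of the kinases MEK1/2 (MEK inhibitor group). DMSO was the vehicle, and the lymph nodes or spleens of 3 mice gave the replicates. Levels are FPKM (fragments scaled to exon length and to library size), which are per length and can be set side by side between genes.

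IL-10 restrains macrophages, dendritic cells and T cells, and effector CD8 T cells are a known source of it at sites of viral infection. It binds a receptor of IL10RA and IL10RB chains, which activates JAK1 and TYK2 and through them the transcription factor STAT3. IL-19 and IL-24 act mainly on epithelial cells and keratinocytes through receptors that contain IL20RB, and IL-22 acts on epithelial barriers through IL22RA1 paired with IL10RB. PI3K p110δ and the MEK1/2 to ERK1/2 cascade are both switched on by the TCR, and the inhibitor groups ask how much of each cytokine mRNA depends on either arm. In the study, ERK1/2 was activated less by the TCR when PI3K p110δ was inhibited, so the arms are not independent.

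Il10, Il19 and Il24 lie in a cluster, and Il22 lies apart from them. On GRCm38 (mm10), Il10 is at chr1:131019845-131024974 on the plus strand, and Il19 (chr1:130932656-130940115) and Il24 (chr1:130882074-130887454) are on the minus strand of the same cluster, which spans 142.9 kb from Il24 to Il10. Il22 is on another chromosome, at chr10:118204942-118210047 on the plus strand, and the interferon gamma gene Ifng starts 231.0 kb beyond its end. All are protein-coding genes, and the values count reads over their exons. Il20, another cytokine of this family between Il24 and Il19, was not analysed here. Nor was Iltifb, a near copy of Il22 that lies 79.6 kb beyond it.

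The copy limits how the Il22 values can be read, which is why the beginning of each coding sequence is shown. The coding sequences of Il22 and Iltifb have 537 bases each and differ at 9 of them (98.3% identity, with a longest identical run of 215 bases). In the GENCODE transcripts, 20.4% of the 100-base stretches of Il22 also occur in Iltifb, whereas 0 stretches of Il10, Il19 or Il24 occur in another gene. Bases 1 to 150 of each coding sequence follow, with the 2 differing bases of this window in capitals.
Il22: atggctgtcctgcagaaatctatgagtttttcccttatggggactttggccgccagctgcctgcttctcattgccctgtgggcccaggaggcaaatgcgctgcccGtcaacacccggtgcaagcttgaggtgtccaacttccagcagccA
Iltifb: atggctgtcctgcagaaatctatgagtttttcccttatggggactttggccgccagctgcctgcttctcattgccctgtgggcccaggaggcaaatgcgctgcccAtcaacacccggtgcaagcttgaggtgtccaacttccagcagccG
Single reads that lie within such stretches cannot be told apart by sequence, although reads were sequenced in pairs and the mate may differ. How such reads were counted is not given in the sources used here, so the Il22 level may be too low or may hold reads of its copy.

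The 3′ untranslated regions (UTRs) of 3 of the genes, Il10, Il24 and Il22, are dense in a sequence feature that the choice of genes did not use. The pentamer ATTTA, read on the transcript strand, is the core of the AU-rich elements by which many cytokine mRNAs are known to be kept short-lived. It occurs 6 times in the 706 bases of the Il10 3′ UTR, 4 times in 381 bases of Il24, 6 times in 521 bases of Il22 and 1 time in 492 bases of Il19. Among 9504 genes of the table with a 3′ UTR of at least 100 bases, 72.7% hold the pentamer and the median density is 1.27 per kb. The densities of Il22 (11.5 per kb), Il24 (10.5 per kb) and Il10 (8.50 per kb) are reached by 0.274%, 0.410% and 0.831% of those genes, and that of Il19 (2.03 per kb) by 32.4%. The longer form TTATTTATT, which contains the pentamer, is in Il22 alone among the family members and in 8.5% of those 9504 genes. A stretch of 30 bases of each 3′ UTR is shown with the pentamer in capitals, as a description of letters and not of function. No stretch of this length held more than 1 pentamer in Il10, Il24 or Il19, so their first pentamer is shown. For Il22 the stretch holds 2, the most of any.
Il10: ctctctccgaaatATTTAttacctctgata
Il24: agtagatttgcatATTTAttacagccctat
Il22: ttATTTAttataagtatacattttATTTAt
Il19: tggctgctgtggtATTTAtagcaatatgtg

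The cells carried the markers of their label: all 8 listed markers of CD8 T cells had values, with Cd8a between 212.73 and 430.34 FPKM over the 12 cultures, while Cd4 lay between 0.28 and 3.65 FPKM. No value was analysed for any of the 5 B cell and 6 macrophage or monocyte markers, nor for Foxp3 and Ncr1. Some listed markers of other cells did move with the groups. The summed level of Cd4 and Cd40lg was 1.58 to 2.39 FPKM in unstimulated cultures, 112.87 to 115.39 with TCR, 48.68 to 53.17 with the PI3K inhibitor and 37.09 to 43.05 with the MEK inhibitor. In the stimulated groups nearly all of this sum was Cd40lg, which encodes the CD40 ligand, while without stimulation Cd4 (0.44 to 0.99 FPKM) and Cd40lg (0.84 to 1.5 FPKM) were alike in level. The 2 dendritic cell markers analysed, Itgax and Zbtb46, summed to 0.32 to 0.51, 3.7 to 4.28, 2.49 to 2.61 and 3.12 to 3.77 FPKM in the same order, and the 2 NK cell markers, Klrb1c and Eomes, to 74.7 to 83.56, 108.35 to 114.28, 112.45 to 116.61 and 73.22 to 81.96 FPKM. These sums hide unlike markers. By the means, Klrb1c fell from 5.39 FPKM without stimulation to 1.79 FPKM with TCR, while Eomes rose from 73.2 to 109 FPKM. Itgax changed little (0.41 and 0.53 FPKM, not called), and Zbtb46 rose from 0.027 to 3.49 FPKM. The part of these markers in the results was not tested. In bulk cultures such as these, fewer cells that make an mRNA and less of it in each cell cannot be told apart.

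**Figure D1:**
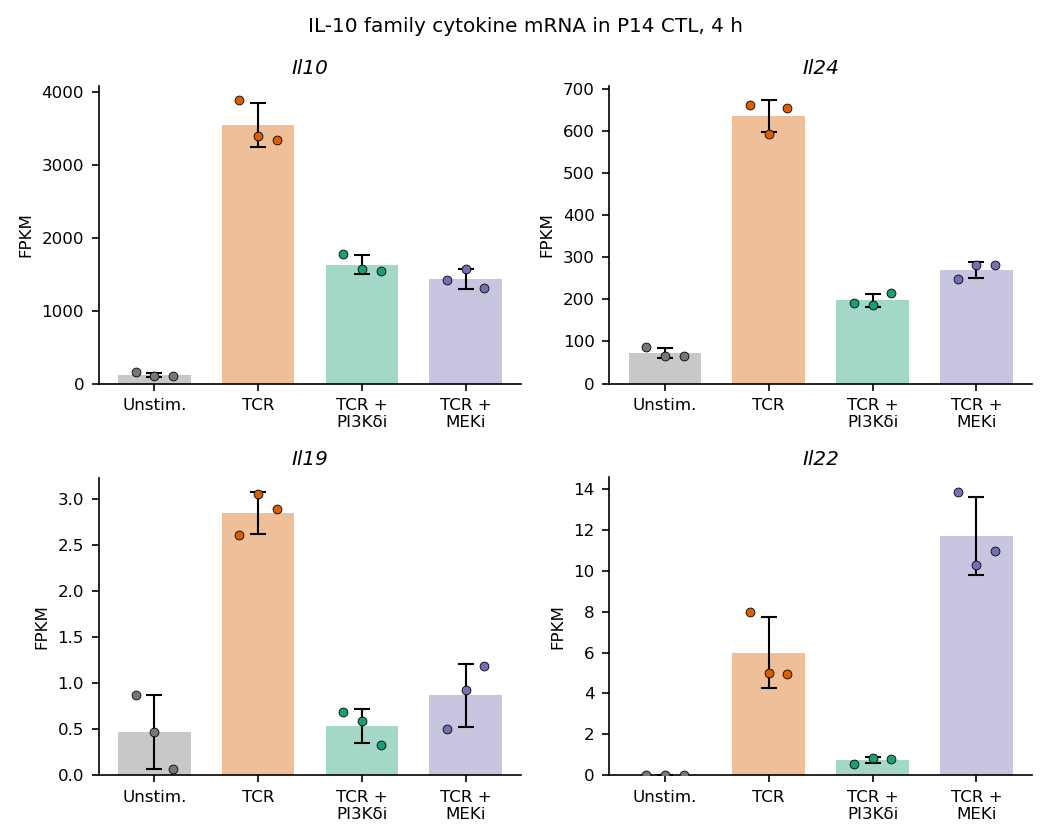
FPKM (linear axes from 0) of Il10, Il24, Il19 and Il22 in each of the 12 cultures, by group (unstimulated, TCR, and TCR plus either inhibitor, PI3Kδi or MEKi). Points are cultures, bars are means and error bars are SD with n = 3; Il10, Il24 and Il19 peak in the TCR group, and Il22 is highest with the MEK inhibitor (10.29 to 13.89 FPKM).

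Il10 was by far the most abundant of these mRNAs. In unstimulated CTL it stood at 153.4, 106.2 and 105.64 FPKM in replicates 1 to 3, and after 4 h of peptide at 3893.31, 3396.99 and 3345.85 FPKM. With the PI3K inhibitor the values were 1782.77, 1576.69 and 1541.96 FPKM, and with the MEK inhibitor 1425.16, 1576.46 and 1308.28 FPKM. The TCR cultures were thus the highest, the unstimulated cultures the lowest, and the inhibitor groups lay between them and overlapped with each other. By its mean, Il10 ranked 590th of all 11022 genes in unstimulated CTL, 12th with TCR, 55th with the PI3K inhibitor and 60th with the MEK inhibitor.

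Il24, whose product is known both as a cytokine and as a factor that can stop the growth of tumour cells, was the next most abundant. It measured 87.53, 64.29 and 66 FPKM in unstimulated cultures and 661.58, 593.27 and 654.23 FPKM with TCR. The PI3K inhibitor group had 192.08, 186.53 and 216.13 FPKM, and the MEK inhibitor group 247.75, 281.69 and 281.03 FPKM. None of the 4 groups overlapped with another, and every culture with the MEK inhibitor was above every culture with the PI3K inhibitor. Its mean ranked 1059th of all genes without stimulation and 143rd with TCR.

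Il19, a cytokine of the IL-20 subfamily, was near the limit of detection. Its values were 0.87, 0.47 and 0.07 FPKM in unstimulated cultures and 2.6, 3.05 and 2.89 FPKM with TCR. They were 0.68, 0.59 and 0.33 FPKM with the PI3K inhibitor and 0.5, 0.92 and 1.18 FPKM with the MEK inhibitor. The TCR cultures stood apart from all others, and the other 3 groups overlapped. At the estimated depth, 3 reads correspond to between 0.199 and 0.335 FPKM of Il19, so the lowest unstimulated value rested on about 1 read.

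Il22, a cytokine of epithelial defence best known from helper T cells and innate lymphoid cells, was listed at 0 in all 3 unstimulated cultures, where 3 reads would give 0.206 to 0.259 FPKM. With TCR it reached 8.01, 5 and 4.97 FPKM, and with the PI3K inhibitor only 0.55, 0.84 and 0.78 FPKM. The MEK inhibitor cultures reached 13.89, 10.29 and 10.97 FPKM, so that the lowest culture of this group was above the highest TCR culture. No 2 groups overlapped. The values correspond to roughly 6 to 10 reads per culture with the PI3K inhibitor, 54 to 86 with TCR and 110 to 120 with the MEK inhibitor.

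The levels therefore spanned a wide range. In every culture Il10 was above Il24, and Il24 was far above the other two. Il22 lay above Il19 in every TCR culture and every culture with the MEK inhibitor, whereas with the PI3K inhibitor the ranges of Il22 and Il19 overlapped. Summed over the 4 genes, the family amounted to 195 ± 40.7 FPKM (SD, n = 3) in unstimulated CTL, 4191 ± 325 FPKM with TCR, 1833 ± 124 FPKM with the PI3K inhibitor and 1719 ± 137 FPKM with the MEK inhibitor. Il10 alone was between 61.5% and 63.4% of that sum in unstimulated cultures and between 81.7% and 90.2% in the stimulated ones.

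The first comparison asks which of these cytokine mRNAs respond to antigen. All 4 rose with TCR, where 8.87% of all genes tested were called higher and 11.1% lower (20.0% in either direction). A call needed an adjusted p (Benjamini-Hochberg, limma) under 0.05 and more than a 2-fold change. The mean FPKM of Il10 was 29.1-fold higher (log2 fold change on the log2(FPKM + 0.1) scale 4.88 ± 0.12 SE, adjusted p = 7.32e-14), that of Il24 8.76-fold higher (3.14 ± 0.10, adjusted p = 1.11e-12) and that of Il19 6.06-fold higher (2.69 ± 0.47, adjusted p = 0.000131). The size of the Il19 rise rests on its low unstimulated values: the fold of the means was 4.25 without unstimulated replicate 3 and 10.5 without replicate 1, and the fitted value was 1.42 with 1 FPKM added and 3.14 with 0.01 FPKM, called in each case. For Il22, which was listed at 0 without stimulation, the fitted value of 5.89 ± 0.20 (adjusted p = 2.22e-12) depends on the 0.1 FPKM that was added: it was 2.78 with 1 FPKM and 9.19 with 0.01 FPKM. Il10 had the 70th and Il22 the 37th highest fitted value of the table. Since whole-table sums of FPKM differed between groups (470420 to 495945 without stimulation and 620715 to 666922 with TCR), the same fit on a TPM scale gave lower values, 4.47 for Il10, 2.73 for Il24, 2.34 for Il19 and 5.69 for Il22, and all 4 stayed called. Of the 2202 genes called on the deposited scale 44.4% were higher, and of the 2923 called on the TPM scale 22.1% were; the median of all genes was -0.01 on the former and -0.41 on the latter.

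**Figure D2:**
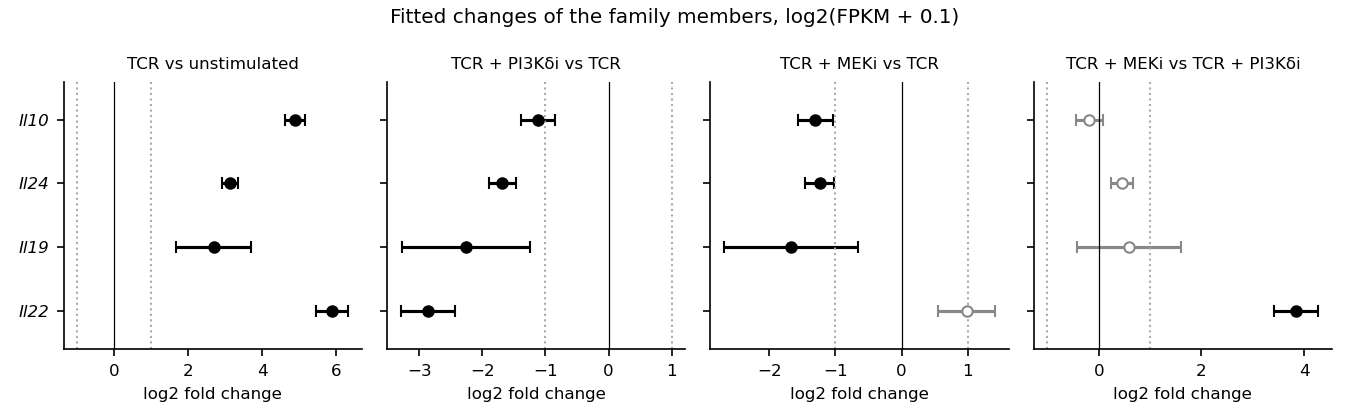
Fitted log2 fold change of each family member in 4 comparisons (horizontal axes, log2(FPKM + 0.1) scale). Points are estimates, bars are 95% confidence intervals from limma with n = 3 cultures per group, filled points passed the adjusted p and the 2-fold threshold, and dotted lines mark a 2-fold change; Il22 is the 1 gene on the positive side when the MEK inhibitor is compared with TCR (0.98), and lies farthest to the right (3.85) when the inhibitors are compared.

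With the PI3K p110δ inhibitor all 4 genes fell below the TCR level, where 1.38% of all genes were called lower and 0.499% higher (1.88% in either direction). Il22 kept 12.1% of its mean TCR level (between 6.87% and 16.8% in same-numbered cultures). Its log2 fold change of -2.87 ± 0.20 (adjusted p = 3.66e-07) was the 6th lowest of the 11022 genes. Il19 kept 18.7% (between 11.4% and 26.2%, overlapping with Il22; -2.26 ± 0.47, adjusted p = 0.00283) and Il24 kept 31.2% (-1.68 ± 0.10, adjusted p = 7.35e-08). Il10 kept the most, 46.1%, and varied little, between 45.8% and 46.4% in the same-numbered cultures (-1.12 ± 0.12, adjusted p = 2.25e-05). The Il10 call rests on the scale: rescaled to TPM it was -0.93, and with quantile normalisation -0.81, lower in each case but inside the 2-fold threshold. Of the 207 genes called on the deposited scale 26.6% were higher, and of the 226 called on the TPM scale, where the median of all genes was 0.19, 52.7% were.

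With the MEK inhibitor 3 of the 4 genes fell, beside 2.51% of all genes called lower and 0.980% higher (3.49% in either direction). Il10 kept 40.5% of its mean TCR level (-1.30 ± 0.12, adjusted p = 1.91e-06), Il24 kept 42.5% (-1.24 ± 0.10, adjusted p = 4.17e-07) and Il19 kept 30.4% (-1.67 ± 0.47, adjusted p = 0.0124). Il22 went the other way. Its mean was 195% of the TCR level, between 173% and 221% in the same-numbered cultures, and higher in 3 of 3. The log2 fold change of 0.98 ± 0.20 (adjusted p = 0.00160) had a 95% interval of 0.55 to 1.41 and stayed just inside the 2-fold threshold, so Il22 was not called. On the TPM scale it was called (1.24, adjusted p = 0.000124), while Il24 (-0.97) was no longer past 2-fold, and after quantile normalisation Il10 (-0.92) was not. Without MEK inhibitor replicate 1, the shallowest library, Il19 lost its call (-1.36, adjusted p = 0.060). Il22 was called without TCR replicate 1 (1.20), whose Il22 was the highest of its group, and also without MEK inhibitor replicate 2 (1.07) or 3 (1.02). Of the 385 genes called on the deposited scale 28.1% were higher, and of the 525 called on the TPM scale, where the median of all genes was 0.26, 61.5% were.

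Because both inhibitors were compared with the same TCR cultures, the difference between them was tested directly, MEK inhibitor against PI3K inhibitor. Only Il22 passed both thresholds, beside 1.39% of all genes called higher and 1.71% lower (3.09% in either direction). Its mean was 16.2-fold higher with the MEK inhibitor (log2 fold change 3.85 ± 0.20, 95% interval 3.42 to 4.28, adjusted p = 1.30e-08), the highest log2 fold change of the 11022 genes in this comparison. It was higher in 3 of 3 same-numbered cultures, and the value stayed between 2.88 and 4.01 with the other pseudocounts and between 3.69 and 3.95 when any 1 culture was left out. Il24 was 1.36-fold higher with the MEK inhibitor, without overlap but under 2-fold (0.45 ± 0.10, adjusted p = 0.00392). For Il10 the difference was -0.19 with a 95% interval of -0.45 to 0.08 (adjusted p = 0.279), and for Il19 it was 0.59 with an interval of -0.42 to 1.59 (adjusted p = 0.376). The intervals leave room for a difference of either sign for these genes.

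Inhibition left different parts of the response. Against unstimulated CTL, Il10, Il24 and Il22 were still called higher with either inhibitor, beside 7.16% of all genes called higher and 7.43% lower with the PI3K inhibitor (14.6% in either direction), and 6.95% higher and 6.46% lower with the MEK inhibitor (13.4%). Il10 remained 13.4-fold above the unstimulated mean with the PI3K inhibitor and 11.8-fold with the MEK inhibitor, and Il24 2.73-fold and 3.72-fold. Il19 was not called with either (0.43 ± 0.47, adjusted p = 0.438, and 1.02 ± 0.47, adjusted p = 0.0756). Expressed as the share of the TCR-induced rise that was left, the means gave 44.2% for Il10, 22.3% for Il24, 2.66% for Il19 and 12.1% for Il22 with the PI3K inhibitor. The shares with the MEK inhibitor were 38.4%, 35.0%, 16.7% and 195%. Those of Il19 are uncertain: without unstimulated replicate 3 they were -6.28% and 9.04% with the PI3K and the MEK inhibitor, and without replicate 1 they were 10.2% and 23.2%. The Il22 call with the PI3K inhibitor (3.02 ± 0.20) was against a group listed at 0 and was lost with a pseudocount of 1 FPKM (0.78).

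Ratios between the genes within a culture depend little on how the libraries were scaled. The log2 ratio of Il10 to Il24 was 0.68 to 0.81 in unstimulated cultures, 2.35 to 2.56 with TCR, 2.83 to 3.21 with the PI3K inhibitor and 2.22 to 2.52 with the MEK inhibitor. The PI3K inhibitor cultures were above all others, and the TCR and MEK inhibitor cultures overlapped. The log2 ratio of Il10 to Il22 was 8.91 to 9.38 with TCR, 10.7 to 11.4 with the PI3K inhibitor and 6.67 to 7.25 with the MEK inhibitor, with no overlap. Of 18 such comparisons among the 3 stimulated groups, 12 had no overlap. The 18 are ratios of the same 4 genes and are not independent, and most of the 12 were ratios to Il22. How many ratios of other genes lack overlap was not calculated. With 3 cultures against 3 the exact permutation test (two-sided) cannot go below p = 0.1 (0.15 after Benjamini-Hochberg adjustment over the 18), so no ratio could pass a threshold of 0.05.

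The receptor list holds 7 chains, of which 3 had values. Il10rb, the chain shared by the receptors for IL-10 and IL-22, fell with TCR, from 26.38, 30.02 and 29.15 FPKM in unstimulated cultures to 6.81, 7.46 and 6.45 FPKM (-2.03 ± 0.08, adjusted p = 7.2e-12). It stayed low with the PI3K inhibitor (9.84, 9.71 and 9.67 FPKM) and the MEK inhibitor (7.06, 7.46 and 7.69 FPKM). The former were above every TCR culture, by less than 2-fold (0.49 ± 0.08, adjusted p = 0.000347).

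Il10ra, which binds IL-10 itself, had 13.1, 13.13 and 14.47 FPKM without stimulation, 13.97, 15.14 and 17.11 FPKM with TCR, and 13.83, 14.97 and 14.36 FPKM with the PI3K inhibitor. The MEK inhibitor cultures had 31.99, 27.95 and 29.38 FPKM, above all other cultures. The MEK inhibitor group was called higher than the PI3K inhibitor group (1.04 ± 0.08, adjusted p = 3.04e-07, though just under 2-fold without MEK inhibitor replicate 1, at 0.99, and with a pseudocount of 1 FPKM). Against TCR it was just under 2-fold (0.95 ± 0.08, adjusted p = 6.77e-07) and was called on the TPM scale (1.21). Il20rb, a chain of the receptors for IL-19 and IL-24, lay between 1.64 and 2.8 FPKM in all cultures. Its groups overlapped, apart from the unstimulated (2.12 to 2.34 FPKM) and PI3K inhibitor cultures (2.38 to 2.8 FPKM), and it was called in none of the 6 comparisons. Il20ra, Il22ra1, Il22ra2 and Ifnlr1 were not analysed here.

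**Figure D3:**
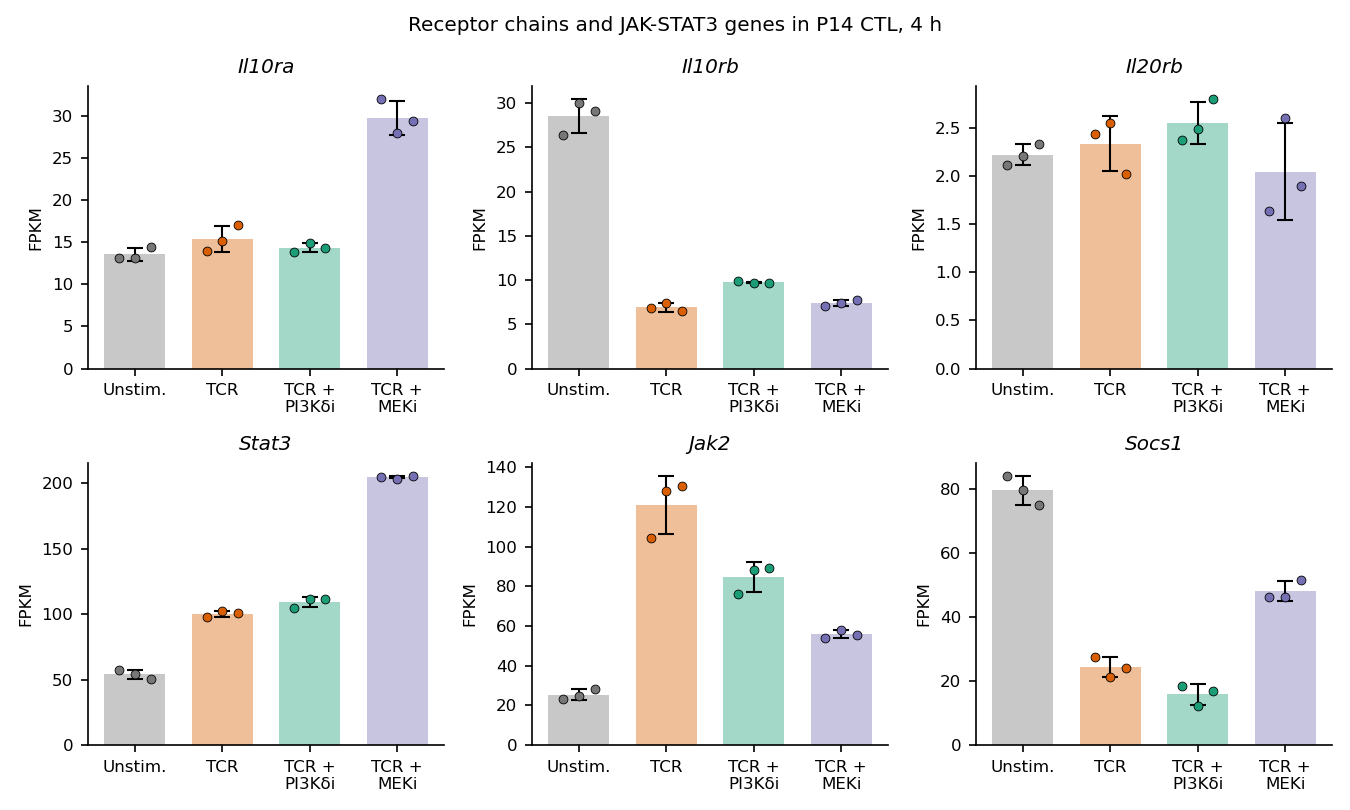
FPKM (linear axes from 0) of the receptor chains Il10ra, Il10rb and Il20rb and of Stat3, Jak2 and Socs1 in each culture, by group. Points are cultures, bars are means and error bars are SD with n = 3; Il10rb and Socs1 are highest without stimulation, and Il10ra and Stat3 are highest with the MEK inhibitor.

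Downstream of these receptors, 7 JAK-STAT3 genes and their feedback inhibitors were measured. For this list and those below, 8.87% of all genes were called higher and 11.1% lower with TCR. With the PI3K inhibitor the shares were 0.499% higher and 1.38% lower, and with the MEK inhibitor 0.980% and 2.51%. Between the inhibitors they were 1.39% and 1.71%. With TCR, 1 was called higher and 2 lower (median -0.51, against -0.01 for all genes); with the PI3K inhibitor 0 were called, and with the MEK inhibitor 1 was higher and 1 lower (median 0.46, against 0.01 for all genes). Stat3, the main transcription factor of IL-10 signalling, was at 97.92, 102.36 and 101.04 FPKM with TCR and at 205.21, 203.59 and 205.26 FPKM with the MEK inhibitor (1.03 ± 0.05, adjusted p = 3.93e-09). Jak2, a kinase of other cytokine receptors, rose with TCR (2.25 ± 0.09, adjusted p = 1.96e-11). It fell from the TCR level with the MEK inhibitor (-1.11 ± 0.09, adjusted p = 5.70e-07), less than 2-fold on the TPM scale (-0.85). Socs1, which blocks JAK kinases, fell from 79.5 ± 4.50 FPKM to 24.3 ± 3.13 FPKM with TCR (SD, n = 3; -1.71 ± 0.12, adjusted p = 1.04e-08). It stood at 15.8 ± 3.17 FPKM with the PI3K inhibitor and 48.0 ± 3.16 FPKM with the MEK inhibitor, a called difference between the inhibitors (1.62 ± 0.12, adjusted p = 2.61e-07).

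Of 8 genes known to be induced by IL-10, 1 was called higher and 2 lower with TCR (median -0.15). The one that rose was Tnfaip3, which encodes the NF-κB inhibitor A20 (4.58 log2, from 3.68 to 90.4 FPKM by the means). Nfil3 (-1.78), a transcription factor of lymphocytes, and Ddit4 (-1.14), an inhibitor of mTORC1, fell. With the PI3K inhibitor 0 of 8 were called, and with the MEK inhibitor Ddit4 was the 1 called, higher (1.40). The list as a whole thus held genes of both directions, and its members also answer to signals other than IL-10.

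Regulators of Il10 were measured in full, 21 of 21. With TCR 9 were called higher and 3 lower (median 0.92), led by Egr2 (6.78), Irf4 (4.24) and Fos (4.07), transcription factors that respond to antigen, and by Ikzf3 (2.34) and Tbx21 (1.95). With the PI3K inhibitor 0 of the 21 were called (median -0.05), which is near the 1.88% of all genes called. Among them Tbx21 (-0.88, adjusted p = 5.90e-05), Batf (-0.87, adjusted p = 3.94e-06) and Egr2 (-0.82, adjusted p = 0.000127), named after their values were seen, were lower by just under 2-fold. In the MEK inhibitor group 3 were called, all lower: Egr2 (-2.50), Fos (-1.47) and Tbx21 (-1.12), the last less than 2-fold on the TPM scale (-0.86). Between the inhibitors Egr2 was lower with the MEK inhibitor (-1.67) and Ahr, the aryl hydrocarbon receptor, higher (1.17, but 0.89 with a pseudocount of 1 FPKM).

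Of 14 regulators of Il22, 13 had values, and several are also on the Il10 list. With TCR 5 were called higher and 1 lower (median 0.90), beside 8.87% and 11.1% of all genes. The 1 called lower was Maf (-1.36), whose mean fell from 16.9 to 6.43 FPKM. The 1 called with the PI3K inhibitor was Il21, a cytokine that signals through STAT3, and it fell (-1.78 ± 0.15, adjusted p = 2.04e-06; list median -0.19). Il21 was at 7.34, 8.76 and 8.96 FPKM with TCR, 2.31, 1.97 and 2.87 FPKM with the PI3K inhibitor and 5, 4.8 and 5.84 FPKM with the MEK inhibitor, and was listed at 0 without stimulation. Under MEK inhibition Stat3 was higher (1.03) and Tbx21 lower (-1.12) than with TCR. Between the inhibitors Ahr (1.17 ± 0.19, adjusted p = 0.000328) and Il21 (1.11 ± 0.15, adjusted p = 7.56e-05) were higher with the MEK inhibitor, the latter just under 2-fold without PI3K inhibitor replicate 2 (0.98). Neither was called with a pseudocount of 1 FPKM (0.89 and 0.88).

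Genes for proteins that act on cytokine mRNA stability were also listed, 12 of 12 with values. Whether the ATTTA pentamers of Il10, Il24 and Il22 act in decay was not tested. With TCR 5 were called higher and 1 lower (median 0.27), beside 8.87% and 11.1% of all genes. Zfp36l1 (2.39) and Zfp36 (1.24, but 0.82 on the TPM scale), which encode proteins that bind AU-rich elements and promote decay, rose. So did Zc3h12a (2.14), which encodes the RNase Regnase-1, while Zfp36l2 (-2.12) fell. With the PI3K inhibitor Zc3h12a was the 1 called, lower (-1.05, but -0.86 on the TPM scale and barely under 2-fold with a pseudocount of 1 FPKM). With the MEK inhibitor 0 were called, and between the inhibitors Zfp36 was lower with the MEK inhibitor (-1.27 ± 0.07, adjusted p = 1.60e-08).

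Genes of the ERK pathway and its feedback were listed as a check on the MEK inhibitor. Of 12, 0 were called with the PI3K inhibitor and 3 fell with the MEK inhibitor, the feedback inhibitors Spry1 (-1.71), Dusp6 (-1.63) and Dusp4 (-1.19, and -0.92 on the TPM scale). Between the inhibitors Spry1 (-1.81), Dusp6 (-1.59) and Dusp5 (-1.19) were lower with the MEK inhibitor.

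The neighbours of the genes were compared because cytokine genes of 1 cluster can share control elements. Within 500 kb of the Il10, Il19 and Il24 starts, 8 other genes had values. With TCR 1 was called, higher: Mapkapk2, which encodes the kinase MK2 and ends 28.7 kb past Il10 (1.20 ± 0.05, adjusted p = 9.98e-12). It was 270.53 to 272.52 FPKM with TCR and 113.77 to 122.34 FPKM without, and it was under 2-fold when rescaled to TPM (0.79) and, barely, after quantile normalisation (1.00). With the PI3K inhibitor 0 of the 8 were called (median 0.08, with 1.88% of all genes called). Mapkapk2 (-0.57, adjusted p = 1.43e-06) and Ikbke (-0.56, adjusted p = 0.000638) were lower by less than 2-fold. Cd55 (0.64, adjusted p = 0.00658) was higher by less than 2-fold, the largest change of the 8. The MEK inhibitor group had 1 called gene, Ikbke, which encodes a kinase of interferon signalling (1.04 ± 0.10, adjusted p = 1.31e-06, and 0.96 without MEK inhibitor replicate 1), and it was higher. Within 500 kb of Il22, 6 genes had values and Ifng was the 1 called with TCR, from 68.61 to 74.86 FPKM without stimulation to between 28242.5 and 31000 FPKM (8.67 ± 0.09, adjusted p = 2.33e-18). Ifng measured 19172.1 to 21384.2 FPKM with the PI3K inhibitor and 15626.5 to 18253.1 FPKM with the MEK inhibitor, below TCR in both cases and by less than 2-fold (-0.55 ± 0.09, adjusted p = 0.000372, and -0.84 ± 0.09, adjusted p = 5.09e-06). In the MEK inhibitor group, then, every Il22 value lay above and every Ifng value below those of the TCR cultures.

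**Figure D4:**
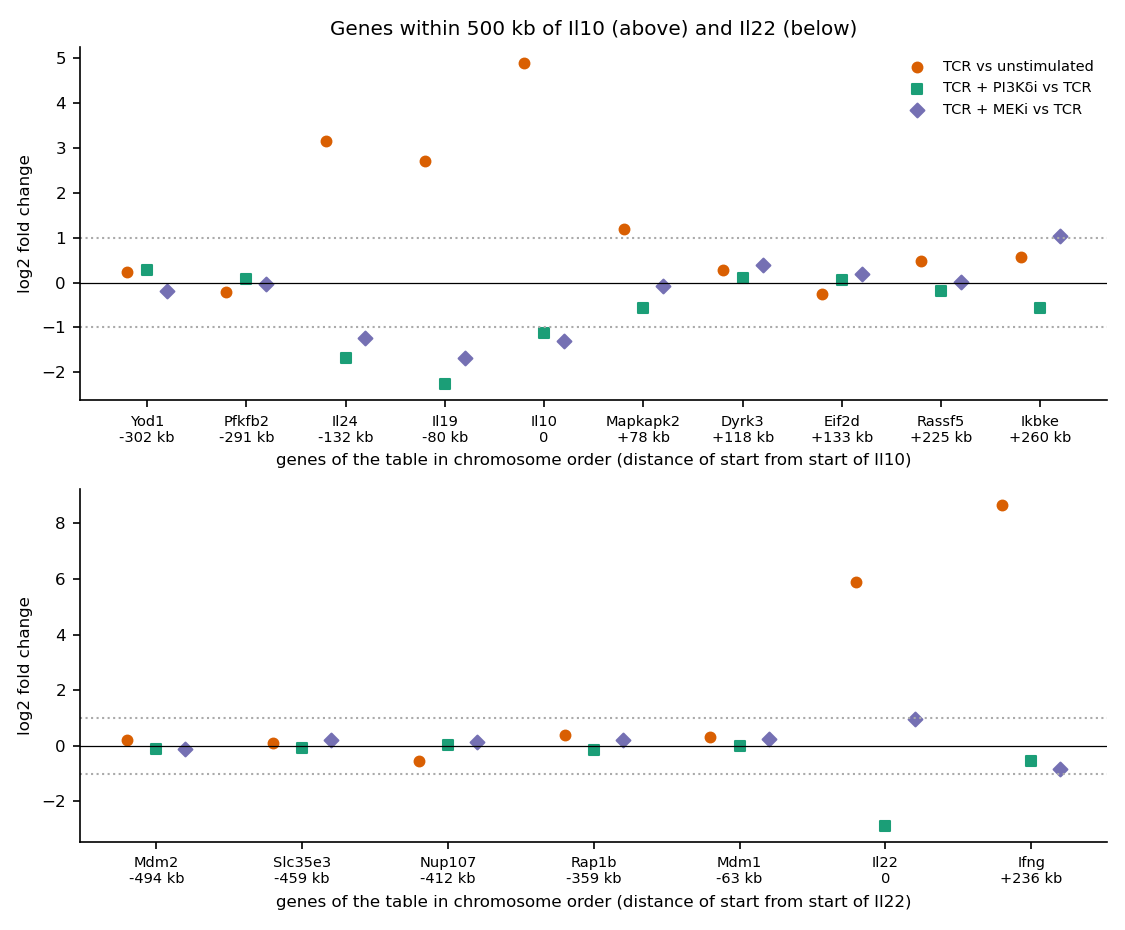
Fitted log2 fold change (vertical axes, log2(FPKM + 0.1) scale) of the genes with values whose start lies within 500 kb of the start of Il10 (above) or Il22 (below), in chromosome order with the distance in kb. Circles compare TCR with unstimulated cultures, squares and diamonds the PI3K and MEK inhibitor groups with TCR, and dotted lines mark 2-fold; the squares of Il24, Il19 and Il10 are below -1 while those of the other genes above are not.

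The patterns most like each gene were sought over the 12 cultures among 10232 genes with a mean of at least 1 FPKM in some group. These correlations describe 4 groups that share libraries and scaling, and are given without a test. Pearson's r on log2(FPKM + 0.1) was highest with Il10 for Cd40lg (0.997), Il1r2 (0.996), Il2 (0.995), Tnfsf11 (0.995) and Cd9 (0.995). For Il22 the genes were Slc7a5 (0.994), Crim1 (0.990), Mib2 (0.990), Stat5b (0.988) and P4ha2 (0.987), whose means were, like that of Il22, higher with the MEK inhibitor than with TCR and lowest without stimulation. Slc7a5, a subunit of the amino acid transporter LAT1, averaged 121, 272, 189 and 297 FPKM in unstimulated, TCR, PI3K inhibitor and MEK inhibitor cultures.

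For Il24 the genes most alike were Ftsj3 (0.986), Mtap (0.985), Wdr12 (0.984), Hectd2 (0.983) and Ier3 (0.983). For Il19 they were Slc35a4 (0.907), Nhp2l1 (0.903), Snx8 (0.883), Car12 (0.880) and Rpl7a (0.879), with lower values of r. No member of the family was among the 5 genes most like another. The r between Il10 and Il24 was 0.940, and Il24 was the 681st gene in the order of likeness to Il10. The lists depend on the measure: with a pseudocount of 1 FPKM, 2, 2, 3 and 0 of the 5 genes were shared for Il10, Il19, Il24 and Il22, and with Spearman's rho 0, 1, 0 and 0.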

How the data were processed

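Polyadenylated RNA of 12 P14 CTL cultures was sequenced by the authors from stranded libraries made from 300 ng of total RNA. The submitters' processing notes name STAR 2.4.2a, Subread 1.5.0, edgeR and mm10. The deposited FPKM values of 11022 genes were made by the authors from read counts per gene, after removal of genes with low counts, by TMM scaling and division by the summed exon length of each gene, without pooling replicates. Whether counting used the strand is not given in the sources used here. Value columns that could not be assigned to a sample numbered 0.

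The members and gene lists were chosen with earlier results of these data known. 1 gene of the list of Il22 regulators is not reported here and was left out of its counts. Comparisons used log2(FPKM + 0.1) of all genes in limma 3.58.1 (R 4.3.3), with 1 mean per group over all 12 samples, an intensity trend and Benjamini-Hochberg adjustment over the table, and the 2-fold threshold of the study's methods. The study's own tests were run on counts, which were not used here. Adding 0.1 understates the change of low genes. The procedure was tested on simulated data. Genes named are the 4 members, every receptor chain with values, of other lists at most 6 called genes per comparison by size of change, neighbours within 500 kb, and the 5 genes most alike by Pearson's r. Genes marked as named after their values were seen go beyond this rule.

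Total reads are not in the table. From the steps between low FPKM values the effective depth was estimated as 7790000 to 13140000 reads per sample, but of the 21 to 40 low values used for each sample only 62.1% to 80.8% came within 0.15 reads of a whole number (30% by chance), so read numbers are approximate and cover counting error only, with a floor of 3 reads. The limma p-values test a difference between groups against the spread between cultures, moderated over all genes, and take the cultures as independent. The sources used here do not say whether a replicate number marks 1 mouse. Deviations from the group means of 9899 genes correlated by over 0.1 in 15 of 18 same-numbered pairs (-0.062 to 0.45). This held for every such pair of an inhibitor group with TCR and of the inhibitor groups with each other. It also held for every such pair of the MEK inhibitor group with unstimulated cultures. Same-numbered cultures were therefore set side by side in percentages, but the main fit held no replicate term and its p-values do not use the pairing. Alternatives were pseudocounts of 1 and 0.01, a mean FPKM of at least 1, a TPM scale, quantile normalisation, a replicate block, the compared groups alone, no trend and leaving out each replicate. Leaving out unstimulated cultures for the shares of the induced rise and the folds of means was a choice made after seeing the data. Positions, coding sequences and 3′ UTRs are from GENCODE M21 (GRCm38), and analysis used Python 3.11.15 and SciPy 1.17.1.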

Additional observations from a re-analysis of the deposited data

Results flagged for a closer look

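Il22 was the 1 member called, by adjusted p and more than a 2-fold change, in the test of the difference between the inhibitor groups; Il24 differed by less than 2-fold (0.45, limma, adjusted p = 0.00392). With the MEK inhibitor it was higher than with the PI3K inhibitor by a log2 fold change of 3.85 (limma, adjusted p = 1.30e-08), with 10.29 to 13.89 FPKM in the former and 0.55 to 0.84 FPKM in the latter. The value rests on few reads in the PI3K inhibitor cultures and on a gene that shares stretches with Iltifb, and the part of either in the difference was not tested.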

How the results depend on the processing

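Of 336 recalculated fold changes of the 4 members, 323 kept their direction and their side of the threshold, 6 fell under it, 6 passed it and 1 changed sign. The last was Il19 with the PI3K inhibitor against unstimulated cultures, which was 0.43 and became -0.28 (adjusted p = 0.492) without unstimulated replicate 3, whose Il19 rested on about 1 read, and lay between -0.28 and 0.98 over all left-out cultures; none of these was called. Il19 with the MEK inhibitor against unstimulated cultures was called without MEK inhibitor replicate 1 (1.33) or unstimulated replicate 1 (1.57). The replicate block changed the call of no member, and with it 2206 genes were called for TCR against unstimulated and 209 and 389 for the PI3K and MEK inhibitor groups against TCR. The count of members called stayed within 1.5 times of its main value under every alternative. With so few members this range allows the loss of a call, and an equal count can hold other genes. For the MEK inhibitor against TCR on the TPM scale, Il24 (-0.97) lost its call and Il22 (1.24) was called higher instead. A pseudocount of 1 FPKM lowered the genes called in the table from 2202, 207, 385, 341, 1608 and 1478 to 1405, 90, 201, 150, 979 and 873, for TCR against unstimulated, the PI3K and MEK inhibitor groups against TCR, MEK against PI3K inhibitor, and the PI3K and MEK inhibitor groups against unstimulated. The share of called genes that were higher moved on the TPM scale from 49.1% to 32.9% and from 51.8% to 39.7% in the last 2 of these. Depth limits Il19 and the PI3K inhibitor values of Il22 most.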
